A study of Mus musculus with 23 samples.

Results

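The genes described here encode 7 chaperones of the HSP70, HSP40 and HSP90 families and were chosen by name. Hspa1a, Hspa1b and Dnajb1 are classed as inducible, and Hspa8, Hspa5, Hsp90aa1 and Hsp90ab1 as constitutive. Of the 7 genes, 6 had a probe set that the platform annotation pairs with that gene alone, giving 7 of the 12488 probe sets and 6 of the 8251 genes tested. Hsp90aa1 had 2 probe sets and Hsp90ab1 had none. The members were picked with the difference between methamphetamine and saline on these arrays already known, so those differences are given as a description with no test.

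Messenger RNA was measured in the nucleus accumbens, the ventral part of the striatum, on 23 Affymetrix arrays, each hybridised with RNA from a 4-way tissue pool. The mice came from lines founded on C57BL/6J x DBA/2J animals and selected by how strongly methamphetamine (MA), a psychostimulant that releases dopamine, acted on them acutely, HMACT for a high and LMACT for a low response. The groups were HMACT mice given 2 mg/kg MA (6 pools), HMACT mice given saline (SAL, 6 pools), LMACT mice given 2 mg/kg MA (5 pools) and LMACT mice given SAL (6 pools), all killed 1 hour after the injection. Mean ages of the pools were 115.4 ± 35.0 days in HMACT MA and 113.9 ± 38.2 days in HMACT SAL (SD, n = 6 each), against 76.9 ± 21.7 days in LMACT MA (SD, n = 5) and 76.3 ± 25.3 days in LMACT SAL (SD, n = 6). The labels do not say how many selected families stand behind a line or how animals were shared among pools. Every difference between HMACT and LMACT is thus a difference between the pools of these selected stocks, and p-values measure the spread between pools. HMACT pools were also older (mean 114.6 days against 76.6 in LMACT), so line and age cannot be fully told apart.

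HSP70 proteins bind exposed hydrophobic stretches of unfolded proteins in cycles driven by ATP. HSP40 proteins deliver substrates to HSP70 and stimulate its ATPase through their J domain, and HSP90 acts later, on clients such as steroid receptors and kinases. After heat or other protein damage the transcription factor HSF1 drives the inducible genes, while the constitutive ones serve folding in unstressed cells and are abundant in neurons.

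Promoter sequences from RefSeq (GRCm38.p6 build) were matched by symbol for 4 of the 7 genes: Hspa1a, Hspa1b, Hspa5 and Dnajb1. The 250 bases before the start site are printed for the pair with the largest differences between MA and SAL, Hspa1a and Hspa1b, and for Hspa5 as a constitutive gene. Hspa1a and Hspa1b lie on the minus strand of chromosome 17 (chr17:34972157-34972406 for Hspa1a and chr17:34959239-34959488 for Hspa1b) and Hspa5 on the plus strand of chromosome 2 (chr2:34771840-34772089). Capitals mark the letters GAANNTTC, 2 facing copies of the unit bound by heat shock factors, in the pair, and CCAAT and CCACG with 9 bases between them, the ER stress element, in Hspa5.
Hspa1a: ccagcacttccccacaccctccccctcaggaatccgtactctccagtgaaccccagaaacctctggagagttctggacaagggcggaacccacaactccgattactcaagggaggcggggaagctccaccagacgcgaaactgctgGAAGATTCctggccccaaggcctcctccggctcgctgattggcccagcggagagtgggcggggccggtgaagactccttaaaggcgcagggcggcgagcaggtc
Hspa1b: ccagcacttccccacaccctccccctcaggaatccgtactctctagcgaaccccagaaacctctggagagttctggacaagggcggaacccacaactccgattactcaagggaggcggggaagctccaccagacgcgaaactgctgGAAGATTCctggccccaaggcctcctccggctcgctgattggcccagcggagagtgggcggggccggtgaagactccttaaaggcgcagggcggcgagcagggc
Hspa5: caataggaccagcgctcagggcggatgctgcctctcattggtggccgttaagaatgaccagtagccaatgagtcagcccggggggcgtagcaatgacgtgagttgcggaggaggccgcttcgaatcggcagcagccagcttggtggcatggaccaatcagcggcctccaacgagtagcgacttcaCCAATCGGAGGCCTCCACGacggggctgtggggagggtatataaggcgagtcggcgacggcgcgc

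Each promoter of the pair held the match GAAGATTC at 104 bases before the start site. Over the windows that run from 250 bases before to 50 after the start, they differed at 4 of 300 bases (98.7% identity). These were C44T, T47C, T249G and C276T, with the Hspa1a base first and positions counted from 1 at the 5′ end, and 3 of them lie in the printed bases. Searched on both strands, GAANNTTC, which is its own reverse complement, occurred in 7.86% of all 32851 promoter windows of the table, and the ER stress element in 0.119%. The ER stress element overlaps a CCAAT motif, which alone occurred in 37.4% of the windows. Neither GAANNTTC nor TTCNNGAA, which occurred in 8.52% of all windows, was found in the Hspa5 window or in the 2 Dnajb1 windows, which says only that these letters are absent there.

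The arrays varied within their groups, where 62.1% of the variance over 5308 genes above the floor on at least 12 arrays lay along 1 axis, the first principal component of deviations from group means. On it 4 arrays stood apart, HMACT MA replicate 3, HMACT SAL replicates 3 and 5, and LMACT MA replicate 4, scoring 41.8 to 65.0, while the other 19 scored -22.8 to 23.8. Scores came from values centred on each gene's mean over all 23 arrays, so they keep differences between groups. The labels give 4 chip lots, 1 of which holds 15 arrays from all groups. The difference between 3′ and 5′ control probe sets, a sign of RNA integrity, was 4.57 log2 units on LMACT MA replicate 5 and 1.07 on HMACT SAL replicate 3, against 2.00 to 2.80 elsewhere. It also moved with the groups, at 2.35 ± 0.29 in HMACT MA and 2.11 ± 0.55 in HMACT SAL (SD, n = 6 each), against 2.87 ± 0.96 in LMACT MA (SD, n = 5) and 2.63 ± 0.13 in LMACT SAL (SD, n = 6). Its mean was thus higher after MA in both lines and lower in HMACT than in LMACT. In LMACT the higher MA mean rested on replicate 5. The other LMACT MA pools ran from 2.26 to 2.62, all below the LMACT SAL mean of 2.63. In HMACT the lower SAL mean included replicate 3, and the next lowest SAL pool was at 2.13, above the lowest MA pool (2.00). The part of this control difference in the MA and line differences was not tested. Of 6 striatal neuron markers on the array, Penk, Tac1, Drd2, Pdyn and Ptpn5 were above the floor on all 23 arrays and Rgs9 was at the floor on every array, as was the choroid plexus marker Ttr.

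Hspa1b and Hspa1a, which encode the stress-inducible cytosolic HSP70 proteins, were lower after MA in both lines. Hspa1b was 3.31-fold lower in HMACT and 3.22-fold lower in LMACT, and Hspa1a was 2.07-fold and 1.96-fold lower. Dnajb1, which encodes an HSP40 partner of inducible HSP70, was lower after MA in HMACT and differed little in LMACT. Of the constitutive genes, Hspa8 had its larger difference in LMACT (-0.34 on the log2 scale) and Hspa5 in HMACT (-0.41), both smaller than those of Hspa1a, and Hsp90aa1 had a spread within groups wider than its differences. In bulk tissue, fewer cells of a type and less RNA per cell cannot be told apart. The coding sequences of Hspa1a and Hspa1b are nearly identical, so probes of either set may detect both transcripts, and the pair is uncertain as 2 separate measurements.

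On the log2 scale Hspa1b (probe set 100946_at, chromosome 17) ran from 3.71 over a median of 4.62 to 4.97 in HMACT MA pools, against 5.07, 6.10 and 7.27 in HMACT SAL pools. Every HMACT MA pool lay below every HMACT SAL pool, with a gap between the highest MA pool and the lowest SAL pool. Its values in LMACT MA pools 2 to 6 were 3.62, 4.15, 4.38, 4.02 and 3.86, against a lowest, median and highest value of 4.66, 5.56 and 6.72 in LMACT SAL pools. The LMACT groups did not overlap either. The fitted log2 difference between MA and SAL was -1.73 in HMACT (SE 0.358), -1.69 in LMACT (SE 0.375) and -1.71 (SE 0.259) as a mean of both lines.

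Hspa1b was the only one of 8251 genes whose MA pools lay below all SAL pools in both lines, which is 0.0121% of genes, against 0.0485% in HMACT alone and 0.23% in LMACT alone. It also had the most negative fitted difference of the 6162 genes above the floor on any array, in each line and in the mean. The share of all genes called lower by limma in the mean comparison, at a Benjamini-Hochberg adjusted p under 0.05, was 0.0121%. Since the gene was chosen on this contrast, nothing is read from these counts. Group means were 4.45 ± 0.47 in HMACT MA and 6.18 ± 0.71 in HMACT SAL (SD, n = 6 each), and 4.004 ± 0.29 in LMACT MA (SD, n = 5) and 5.69 ± 0.84 in LMACT SAL (SD, n = 6). From lowest to highest the order was LMACT MA, HMACT MA, LMACT SAL and HMACT SAL, and each neighbouring pair in it overlapped, the middle pair included, since the highest HMACT MA pool (4.97) lay above the lowest LMACT SAL pool (4.66).

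Hspa1a (93875_at, chromosome 17) ran from 7.66 over a median of 8.24 to 8.64 in HMACT MA pools, against 8.77, 9.19 and 10.14 in HMACT SAL pools. These groups did not overlap. In LMACT MA pools 2 to 6 it measured 7.51, 7.45, 8.07, 8.42 and 7.74, against 8.11, 8.63 and 9.59 as the lowest, median and highest of the LMACT SAL pools. Here 4 of 5 MA pools lay below the lowest SAL pool, and replicate 5, the pool with the largest 3′ to 5′ control difference, lay within the SAL range. Hspa1a thus differed by -1.05 in HMACT (SE 0.282) and by -0.97 in LMACT (SE 0.296). Its means were 8.22 ± 0.37 in HMACT MA and 9.27 ± 0.50 in HMACT SAL (SD, n = 6 each), and 7.84 ± 0.41 in LMACT MA (SD, n = 5) and 8.80 ± 0.64 in LMACT SAL (SD, n = 6). The groups stood in the same order as for Hspa1b, and each neighbouring pair overlapped.

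Dnajb1 (96254_at, chromosome 8) ran from 6.14 over a median of 6.41 to 6.98 in HMACT MA pools, against 6.66, 7.57 and 8.29 in HMACT SAL pools. Of the 6 MA pools, 5 lay below the lowest SAL pool, and the exception was replicate 3, which stands apart on the array axis. Values in LMACT MA pools 2 to 6 were 6.32, 5.82, 6.50, 5.72 and 6.03, against 5.52, 6.39 and 6.67 in LMACT SAL pools. No LMACT MA pool lay below the lowest SAL pool, and the groups overlapped throughout. MA and SAL pools differed by -0.98 in HMACT (SE 0.246) and by -0.21 in LMACT (SE 0.258), where pairing same-numbered pools gave -0.13. Group means were 6.46 ± 0.28 in HMACT MA and 7.43 ± 0.62 in HMACT SAL (SD, n = 6 each), and 6.08 ± 0.33 in LMACT MA (SD, n = 5) and 6.29 ± 0.40 in LMACT SAL (SD, n = 6). The order from lowest to highest was LMACT MA, LMACT SAL, HMACT MA and HMACT SAL, with overlap between each neighbouring pair. The HMACT SAL pools were uneven, with replicates 2 to 5 at 7.73, 8.29, 7.56 and 7.57, and replicates 1 and 6 at 6.78 and 6.66. Replicates 2 to 5 were also the HMACT SAL pools with scores above 0 on the array axis (19.7, 65.0, 2.94 and 41.8), while replicates 1 and 6 scored -12.9 and -19.7. Without the arrays that stand apart the HMACT difference was -0.83, and with the axis as a covariate it was -0.86.

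**Figure D1:**
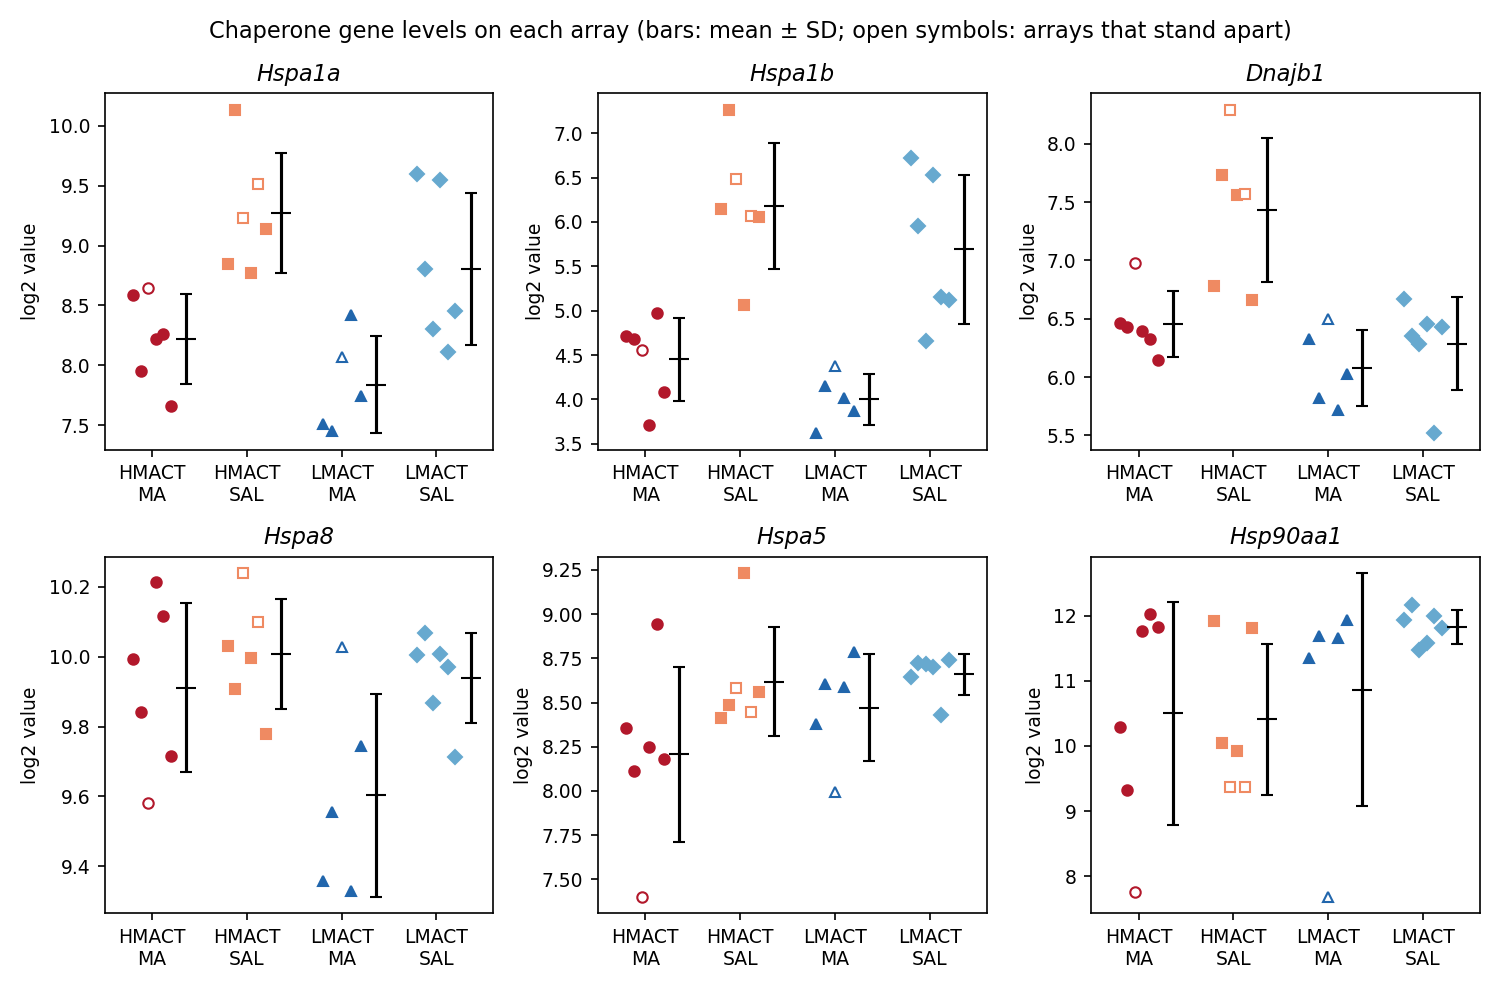
Deposited log2 value (vertical axis, a separate range for each gene) of 6 chaperone genes on each array by group, with the mean ± SD of each group as a bar and open symbols for the 4 arrays that stand apart on the array axis. Hspa1b shows no overlap between MA and SAL pools in either line, and Hsp90aa1 has low and high arrays within every group except LMACT SAL.

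Of the constitutive genes, Hspa8 encodes HSC70, the HSP70 that uncoats clathrin vesicles at synapses and folds proteins in unstressed cells. Its level (96564_at, chromosome 9) ran from 9.58 over a median of 9.92 to 10.21 in HMACT MA pools, against 9.78, 10.01 and 10.24 in HMACT SAL pools. In LMACT it was 9.36, 9.55, 10.03, 9.33 and 9.74 in MA pools 2 to 6, against 9.71, 9.99 and 10.07 in SAL pools. The HMACT groups overlapped over most of their range, while 3 of 5 LMACT MA pools lay below the lowest LMACT SAL pool. Hspa8 differed by -0.10 in HMACT (SE 0.120) and by -0.34 in LMACT (SE 0.126). The sign in HMACT turned without the arrays that stand apart (0.049), with array weights (0.033) and in pools under 100 days (0.058). Hspa8 had the narrowest spread within groups of the 6 genes, with a pooled SD of 0.210 log2 units.

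Hspa5 encodes BiP, the HSP70 of the endoplasmic reticulum, which also holds the stress sensors there inactive. Its level (101955_at, chromosome 2) ran from 7.40 over a median of 8.21 to 8.95 in HMACT MA pools, against 8.41, 8.52 and 9.23 in HMACT SAL pools. In LMACT MA pools 2 to 6 it was 8.38, 8.61, 7.996, 8.59 and 8.79, against 8.43, 8.71 and 8.74 in LMACT SAL pools. In HMACT 5 of 6 MA pools lay below the lowest SAL pool, with replicate 5 the exception, and in LMACT 2 of 5 did. The lowest MA pool of each line, HMACT replicate 3 and LMACT replicate 4, was an array that stands apart. The fitted difference was -0.41 in HMACT (SE 0.192) and -0.19 in LMACT (SE 0.201), and -0.30 and -0.07 without the arrays that stand apart. In LMACT it was 0.033 with array weights and 0.027 in the lot of 15 arrays.

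Hsp90aa1 encodes the inducible isoform of cytosolic HSP90, which is grouped here with the constitutive genes. Its level (95282_at, chromosome 12) ran from 7.76 over a median of 11.03 to 12.03 in HMACT MA pools, against 9.37, 9.99 and 11.92 in HMACT SAL pools. In LMACT MA pools 2 to 6 it was 11.35, 11.69, 7.68, 11.66 and 11.93, against 11.48, 11.88 and 12.16 in LMACT SAL pools. The values fell into a lower set of 8 arrays from 7.68 to 10.29 and a higher set of 15 arrays from 11.35 to 12.16, with none between. The lower set held 7 HMACT arrays of both injections and 1 LMACT array, LMACT MA replicate 4. All 8 arrays of the lower set had scores above 0 on the array axis (0.77 to 65.0) and all 15 of the higher set had scores below 0 (-22.8 to -9.75). Hsp90aa1 is itself 1 of the 5308 genes that define the axis, and by the size of its loading it ranked at position 55.

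The difference of Hsp90aa1 between MA and SAL depended on which arrays were kept. In HMACT it was 0.09 (SE 0.771), and in LMACT it came to -0.97 (SE 0.809). Without the arrays that stand apart, these became 0.12 and -0.17. In HMACT it ran from -0.21 to 0.64 on leaving out 1 array (-0.21 without HMACT MA replicate 5 and 0.64 without HMACT MA replicate 3), and it was 1.51 in pools under 100 days, 0.98 with array weights, -0.38 with the array axis as a covariate and -0.99 in the lot of 15 arrays. Its pooled SD within groups, 1.35 log2 units, was larger than that of 99.3% of genes. The other Hsp90aa1 probe set, 161869_i_at, stayed between 2.27 and 2.501 on all arrays, at or just above the floor of 2.3, and gives no usable level.

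**Figure D2:**
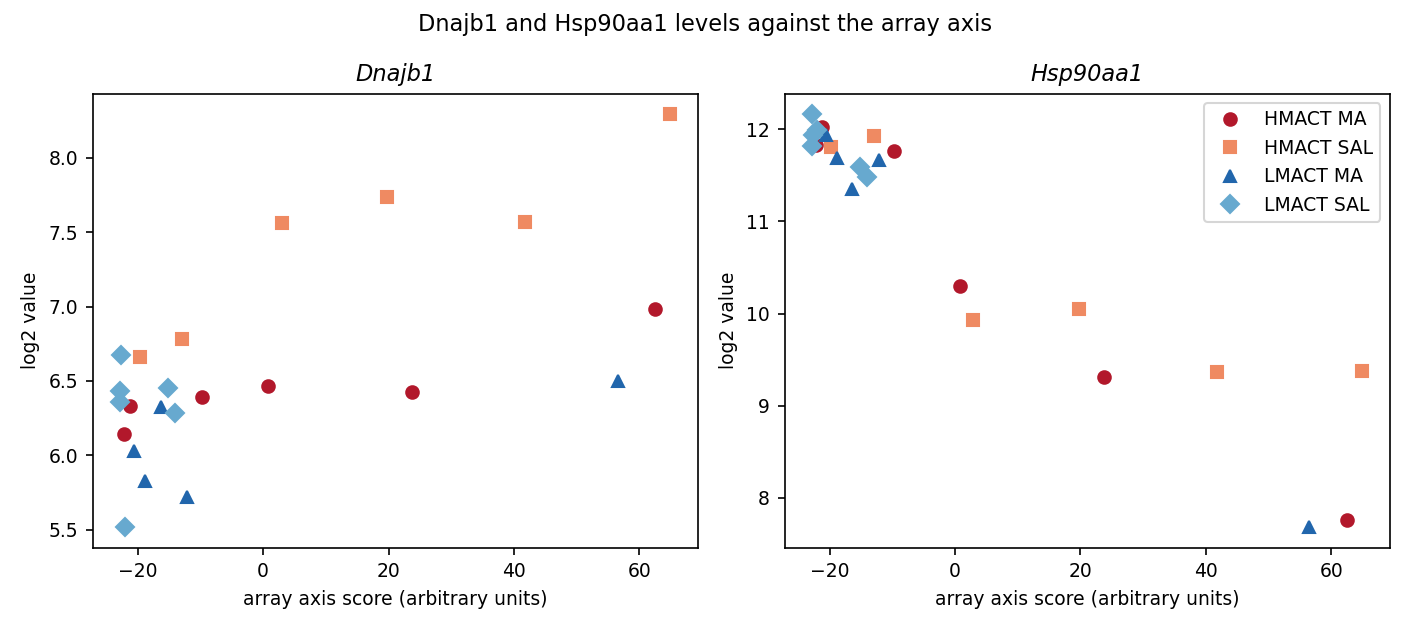
Log2 value of Dnajb1 (left) and Hsp90aa1 (right) on each of 23 arrays against the array's score (arbitrary units), with symbols for the 4 groups. The axis was found from within-group variation, and the scores keep differences between groups. Hsp90aa1 is between 11.35 and 12.16 on arrays with scores below 0 and between 7.68 and 10.29 on arrays with scores above 0, and the highest Dnajb1 values are HMACT SAL arrays with scores above 0.

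**Figure D3:**
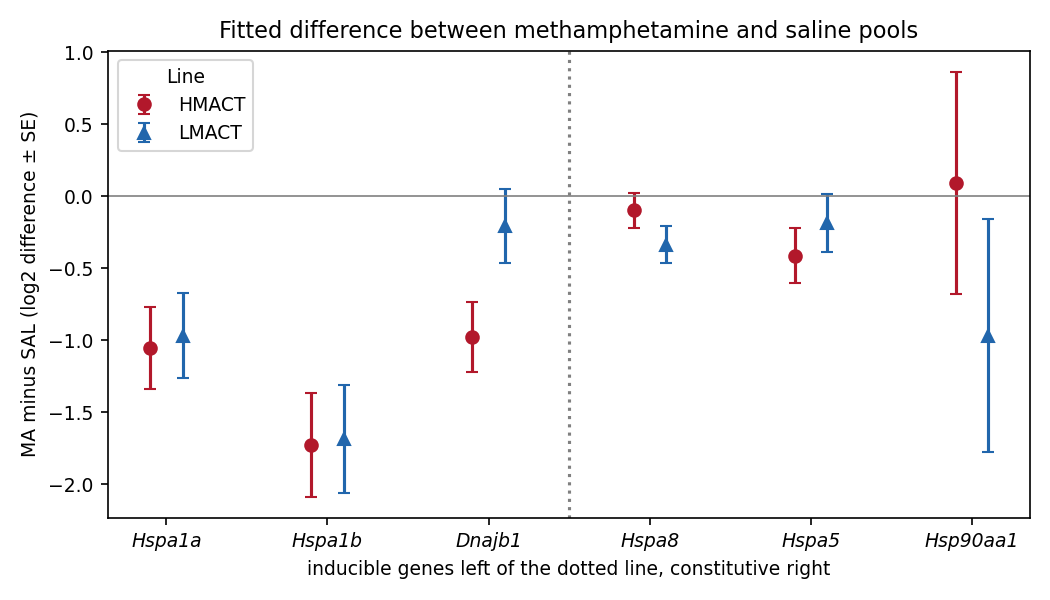
Fitted log2 difference between MA and SAL (points) with its SE (bars) for each gene in HMACT and LMACT, inducible genes left of the dotted line. Hspa1b is near -1.7 in both lines, Dnajb1 is -0.98 in HMACT and -0.21 in LMACT, and the SE of Hsp90aa1 exceeds 0.7 in both.

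For the contrast of the classes, each gene was centred on its mean over the 23 arrays, and the mean of the 3 constitutive genes was subtracted from that of the 3 inducible genes on each array. This index was -0.17 ± 0.96 in HMACT MA and 0.95 ± 0.77 in HMACT SAL (SD, n = 6 each), against -0.68 ± 0.82 in LMACT MA (SD, n = 5) and -0.22 ± 0.54 in LMACT SAL (SD, n = 6). The groups overlapped in both lines. The difference between MA and SAL was -1.11 in HMACT and -0.46 in LMACT, with no test, since the choice of members fixes its direction. With class medians in place of means, these became -0.93 and -0.86. The LMACT value was -0.81 without LMACT MA replicate 4, the LMACT array that stands apart. Without Hsp90aa1, a setting chosen after seeing the data, the SD was smaller in both MA groups and in HMACT SAL and hardly moved in LMACT SAL. The index was then -0.26 ± 0.50 in HMACT MA and 0.74 ± 0.56 in HMACT SAL (SD, n = 6 each), against -0.64 ± 0.28 in LMACT MA (SD, n = 5) and 0.05 ± 0.53 in LMACT SAL (SD, n = 6). The LMACT difference was then -0.69 and the HMACT difference -0.997. The inducible genes alone averaged -0.38 ± 0.29 in HMACT MA and 0.87 ± 0.49 in HMACT SAL (SD, n = 6 each), against -0.79 ± 0.21 in LMACT MA (SD, n = 5) and 0.17 ± 0.58 in LMACT SAL (SD, n = 6), and of these only the HMACT groups were without overlap, with a highest MA pool of -0.032 and a lowest SAL pool of 0.38.

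Chip lot was set against these differences, because the lots of 15 and of 4 arrays each hold arrays of all groups. The lot of 3 arrays holds no LMACT MA array, and the lone array of the remaining lot is LMACT MA replicate 4. The LMACT differences given for their join thus compare arrays of different lots. In the lot of 15 arrays Hspa1b was lower after MA by a log2 difference of -1.98 in HMACT and -1.40 in LMACT. In the lot of 4 arrays, with 1 array a group, the differences were -1.36 and -2.34, and in the lot of 3 arrays, joined with the lone array of the remaining lot, they were -1.10 and -2.15. Hspa1a was likewise lower after MA in every lot and line (-0.55 to -1.48). Dnajb1 was lower in HMACT in each lot (-0.86, -1.17 and -1.24), whereas in LMACT it was -0.37, -0.03 and 0.04. Hsp90aa1 changed sign between lots in HMACT (-0.99, 1.84 and 2.66).

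The next question was whether chaperone levels, averaged over both injections, differed between HMACT and LMACT, a comparison that the rule for the members did not use. With limma and two-sided tests, 0 of the 6 members passed an adjusted p under 0.05, beside 0.194% of all genes, of which 0.133% were higher and 0.0606% lower in HMACT, and 12.7% of all genes had an unadjusted p under 0.05. Dnajb1 had the smallest adjusted p of the 6. It was higher in HMACT by a log2 difference of 0.76 (SE 0.178, limma adjusted p = 0.0944), with 6.14 to 6.98 in HMACT MA against 5.72 to 6.50 in LMACT MA, and 6.66 to 8.29 in HMACT SAL against 5.52 to 6.67 in LMACT SAL. Only the SAL groups came close to separating, with 1 LMACT SAL pool just above the lowest HMACT SAL pool.

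Dnajb1 passed the threshold with quantile normalization, with median centring, without genes at the floor on most arrays and with array weights (limma adjusted p from 0.00992 to 0.0497), and also without HMACT SAL replicate 6 or without LMACT MA replicate 4. With mean age as a covariate the difference was 0.61 (adjusted p = 0.84), and with only pools under 100 days it was 0.60 (adjusted p = 1.0). Hspa1a and Hspa1b were higher in HMACT by 0.43 (SE 0.205, limma adjusted p = 0.395) and 0.47 (SE 0.259, adjusted p = 0.448). Neither passed under any alternative run, and their size moved with the pools kept: in pools under 100 days Hspa1a was 0.23 and Hspa1b 0.071, with mean age as a covariate 0.36 and 0.29, with array weights 0.68 and 0.63, and in the lot of 15 arrays 0.53 and 0.79. For Hspa8 the line difference was 0.19 (SE 0.0869, limma adjusted p = 0.382), for Hspa5 it was -0.15 (SE 0.139, adjusted p = 0.679) and for Hsp90aa1 -0.89 (SE 0.559, adjusted p = 0.506). The sign for Hsp90aa1 turned with the array axis as a covariate (0.096), and that for Hspa5 turned there (0.00743) and in pools under 100 days (0.084). The axis scores keep differences between the lines, so this covariate is not separate from the line comparison. Markers of cell types were set beside the same comparison. All 6 oligodendrocyte markers above the floor, of 7 on the array and 8 listed, were lower in HMACT, with 0 past the threshold. Their median log2 difference was -0.32, and Cnp was at the floor on every array. Marker values of a list were summed on the linear scale and the log2 of the sum was taken, so the highest markers weigh most. For oligodendrocytes, with Mobp highest (mean 12.33), this was 12.15 to 13.22 in HMACT MA and 12.53 to 13.15 in HMACT SAL. In LMACT it was 13.24 to 13.64 in MA pools and 12.95 to 13.56 in SAL pools, so that the MA groups of the lines fell just short of overlap. Of 6 astrocyte markers on the array (8 listed), all above the floor, 4 were lower and 2 higher in HMACT, with 0 past the threshold and a median log2 difference of -0.11. The log2 of their linear sum, with Aldoc highest (mean 12.49), was 13.10 to 13.41 in HMACT MA and 13.19 to 13.70 in HMACT SAL. In LMACT it was 13.49 to 14.07 in MA pools and 13.36 to 13.67 in SAL pools, so that the MA groups of the lines did not overlap here either. Of 6 microglia markers above the floor, 4 were higher and 2 lower in HMACT, with a median of 0.38. Of 5 striatal neuron markers above the floor, 3 were higher and 2 lower, with a median of 0.37. The endothelial and blood list had a median of 0.12 and the choroid plexus list 0.074. None of these genes passed the threshold. The control difference between 3′ and 5′ probe sets was lower in HMACT. The part of these measures in the line differences was not tested.

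Whether MA acted differently in the lines was tested as an interaction, the HMACT effect minus the LMACT effect. No member passed, and 0% of all genes did, with 2.62% at an unadjusted p under 0.05. Dnajb1 had an interaction of -0.77 (SE 0.356, limma adjusted p = 0.860), so the larger difference in HMACT was not shown to differ from that in LMACT. The interaction was -0.46 with the array axis as a covariate and -0.52 without the arrays that stand apart. For Hspa1b it was -0.04 (SE 0.519) and for Hspa1a -0.09 (SE 0.409), both at a limma adjusted p of 1.0, and the sign of either turned when single arrays were left out. With same-numbered pools paired these became -0.246 for Hspa1b and -0.244 for Hspa1a, still not past the test. Hsp90aa1 had 1.06 (SE 1.12, limma adjusted p = 0.860), Hspa8 0.24 (SE 0.174, adjusted p = 0.860) and Hspa5 -0.22 (SE 0.278, adjusted p = 0.874).

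Variation between pools of 1 group was not used to choose the members, so it was compared between genes. Deviations from group means were correlated over 23 arrays for the 10 pairs of 5 members, leaving out Hsp90aa1 because its values fall into separate sets. Hspa1a and Hspa1b varied together, with a Pearson r of 0.764 (permutation within groups, two-sided p = 0.00058, adjusted over the 10 pairs p = 0.0058) and a Spearman rho of 0.733 (permutation p = 0.0011, adjusted p = 0.0112). Without the 2 arrays farthest from the median of Hspa1a the r was 0.650, in the lot of 15 arrays 0.789, and without the arrays that stand apart 0.786. Shared detection by the probes of both sets cannot be told apart here from 2 transcripts that vary together. Hspa1a and Dnajb1 had an r of 0.446 (permutation, adjusted p = 0.282) and a rho of 0.492 (permutation, adjusted p = 0.129), which did not pass, and neither did any of the other 8 pairs. The constitutive pair Hspa8 and Hspa5 had an r of 0.187 (permutation, adjusted p = 0.544).

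**Figure D4:**
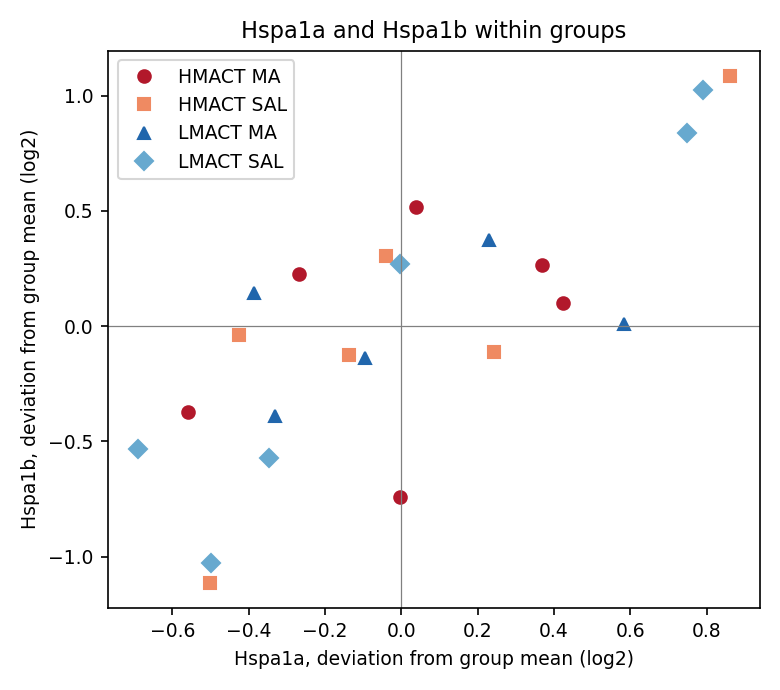
Deviation of Hspa1b from its group mean (vertical axis, log2) against that of Hspa1a (horizontal axis, log2) on the 23 arrays, with symbols for the 4 groups. The arrays with both genes highest are 1 HMACT SAL and 2 LMACT SAL pools, and Pearson's r is 0.764.

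Among the 5308 genes above the floor on at least 12 arrays, the pattern within groups most like that of each member was found by the same correlation, as a description over 23 arrays that share their array, lot and labelling. For Hspa1a the closest genes were Hspa1b (0.764), Saysd1 (0.728) and Bag3 (0.716), a co-chaperone gene, and without the arrays that stand apart the last 2 had an r of 0.783 and 0.789. For Hspa1b they were Hspa1a, Bcl2l11 (0.668), which encodes the apoptosis regulator BIM, and Slc6a6 (0.657), the taurine transporter gene. Hspa8 was closest to Zfp598 (0.675), St13 (0.673), which encodes an HSP70-interacting co-chaperone, and Ndn (0.652). Dnajb1 was closest to Gldc (0.861), Tm2d3 (0.856) and Uqcrc1 (0.837), and Hspa1a took position 1670 in its order. For Hspa5 they were Msmo1 (0.882), a sterol synthesis gene, Sfr1 (0.830) and Rhoq (0.821). Without the arrays that stand apart, r was 0.679 and 0.695 for Bcl2l11 and Slc6a6, but fell for the genes closest to Hspa8, Dnajb1 and Hspa5. In the order named it was 0.585, 0.594 and 0.636 for Hspa8, 0.780, 0.773 and 0.749 for Dnajb1, and 0.804, 0.738 and 0.793 for Hspa5. In the lot of 15 arrays Hspa8 had an r of 0.437 with Zfp598 and 0.489 with St13. The r of Hsp90aa1 with Trnt1 (0.986), Vbp1 (0.982) and Tax1bp1 (0.980) was computed over values that fall into separate sets. By the same deviations, r was 0.986, 0.983 and 0.960 within the lower set of 8 arrays and 0.956, 0.932 and 0.973 within the higher set of 15. Those deviations are from group means taken over arrays of both sets. Levels, a different measure, had an r of 0.976, 0.952 and 0.945 within the lower set and 0.418, 0.548 and 0.506 within the higher set.

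The wider chaperone network was described with 6 lists of other chaperone, co-chaperone and stress genes, 146 different genes of which 105 were on the array and 97 above the floor on any array. As a mean of both lines, 0 of these 105 genes passed limma's test of MA against SAL, beside 0.0242% of all genes, and 4 had an unadjusted p under 0.05, as did 1.5% of all genes. Of the 97, 37 had a positive and 60 a negative difference, and their median was -0.027, against -0.0030 over all genes above the floor. The range ran from -0.55 (Chordc1, a zinc-binding HSP90 co-chaperone gene) to 0.27 (Pih1d1, a subunit gene of an HSP90 co-chaperone complex). By comparison the 3 inducible members had differences of -1.71, -1.01 and -0.59 in that mean, and all 3 lie below that range. In HMACT all 3 (-1.73, -1.05 and -0.98) also lay below the lowest of the 97, Cdc37 at -0.52. In LMACT Chordc1, at -1.32, lay below Hspa1a (-0.97) and Dnajb1 (-0.21), though not below Hspa1b (-1.69). Nothing is read from these ranges, since the members were chosen on this contrast.

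HSF1 and its transcript targets, a list of 24 genes without the members, had 19 on the array and 18 above the floor, of which 6 had a positive and 12 a negative difference, with 0 past the test and a median of -0.050. Hsf1 itself was not among those 19. The smallest p-values belonged to Hspe1, the mitochondrial co-chaperonin gene (-0.26, SE 0.108), and Hsph1, an HSP110 gene that serves HSP70 as a nucleotide exchange factor (-0.21, SE 0.169). Each had a limma adjusted p of 1.0. Among 6 other HSP70 and HSP110 genes above the floor, of 8 on the array, the median was -0.012, with Hspa4l at -0.21 (SE 0.223, limma adjusted p = 1.0). Other J domain genes had 10 positive and 16 negative differences and a median of -0.033, with Dnajc5, the cysteine string protein gene of synaptic vesicles, at 0.11 (SE 0.0594, limma adjusted p = 1.0) and Dnajc17 at 0.046 (SE 0.0315, adjusted p = 1.0).

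Among HSP90 paralogs and co-chaperones 14 differences were positive and 10 negative, with a median of 0.017. St13 (-0.26, SE 0.0981) and Hsbp1, which encodes a small protein that binds HSF1 (-0.19, SE 0.0754), had the smallest p-values there, both at a limma adjusted p of 1.0. Small heat shock proteins and chaperonins had 5 positive and 12 negative differences and a median of -0.048, with Tcp1, a subunit gene of the cytosolic chaperonin, at -0.076 (SE 0.0359, limma adjusted p = 1.0). The ER stress genes around BiP had 4 positive and 19 negative differences of 23, a median of -0.040 and 0 past the test, with Manf at -0.23 (SE 0.125) and Pdia3, a protein disulfide isomerase gene, at -0.18 (SE 0.121), each at a limma adjusted p of 1.0.

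Between the lines, 1 of the 105 genes passed, beside 0.194% of all genes, and 19 had an unadjusted p under 0.05, beside 12.7% of all genes. Pih1d1 was higher in HMACT, with means of 9.26 in HMACT MA and 9.34 in HMACT SAL, against 8.09 in LMACT MA and 7.48 in LMACT SAL, a log2 difference of 1.51 (SE 0.241, limma adjusted p = 0.0124). It did not pass in the lot of 15 arrays, with age as a covariate or in pools under 100 days (adjusted p from 0.147 to 0.492). Of the genes not past the threshold, the mitochondrial chaperonin gene Hspd1 had -0.50 (SE 0.169, limma adjusted p = 0.279) and Mt1, a metallothionein gene, 0.68 (SE 0.277, adjusted p = 0.341). Dnajc10, which encodes a disulfide reductase of the endoplasmic reticulum, had -0.71 (SE 0.250, limma adjusted p = 0.303) and Dnajc1 -0.15 (SE 0.0493, adjusted p = 0.272). Eif2ak3, which encodes the stress sensor PERK, had -0.14 (SE 0.0415, limma adjusted p = 0.197) and Sel1l, of the degradation machinery there, 0.28 (SE 0.0961, adjusted p = 0.280). Cct3 had 0.29 (SE 0.168, limma adjusted p = 0.463), Hspa9, the mitochondrial HSP70 gene, -0.21 (SE 0.136, adjusted p = 0.538) and Hspa2 0.19 (SE 0.129, adjusted p = 0.553). No gene of the lists passed the interaction test, at which 7 of the 105 had an unadjusted p under 0.05, beside 2.62% of all genes.

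**Figure D5:**
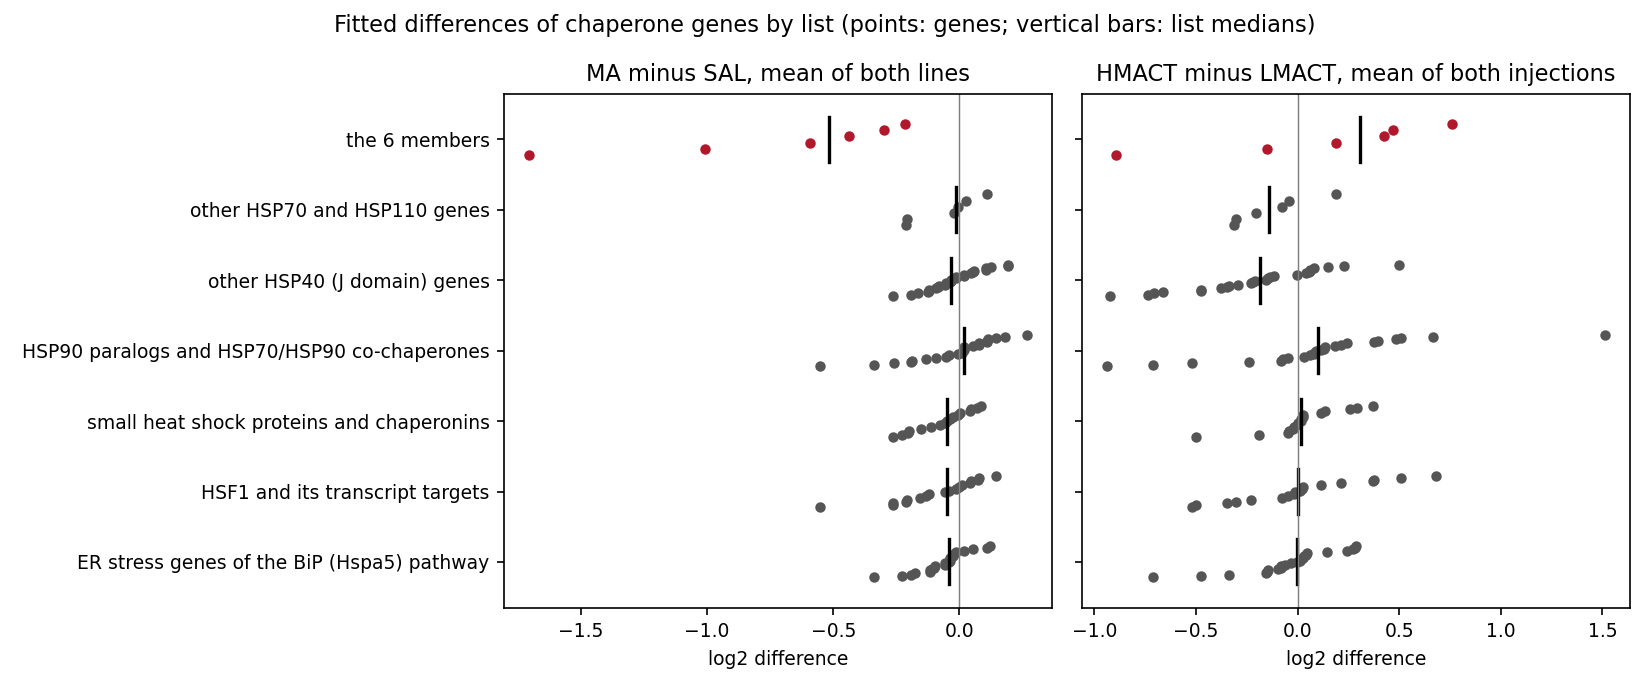
Fitted log2 differences of the 6 members and of the genes on 6 other chaperone lists above the floor on any array (points, with the median of each list as a vertical bar), for MA minus SAL (left) and HMACT minus LMACT (right). The left panel is the mean of both lines. There Hspa1b (-1.71), Hspa1a (-1.01) and Dnajb1 (-0.59) lie below the range of the other chaperone genes (-0.55 to 0.27), and on the right Pih1d1 (1.51) is the point farthest right.

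Markers of other cell types were set beside the drug difference. Over lists of striatal neuron, astrocyte, oligodendrocyte, microglia, endothelial or blood and choroid plexus markers, 0 genes passed limma's test of MA against SAL in the mean of both lines, and list medians ran from -0.064 to 0.046. The endothelial and blood list had 9 of 12 genes on the array, all 9 above the floor on at least 1 array. The log2 of their linear sum, with Hba-a1 highest (mean 8.29), was 8.57 to 9.63 in HMACT MA and 8.35 to 11.41 in HMACT SAL. In LMACT it was 8.19 to 9.32 in MA pools and 8.19 to 9.33 in SAL pools. The highest value of that sum thus came from an HMACT SAL pool. Its part in the chaperone values was not tested.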

How the data were processed

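The data were 23 one-colour Affymetrix arrays of pooled mouse nucleus accumbens, with groups, doses, ages and chip lots taken from the labels. The authors deposited 1 value per probe set and array. The log2 scale of the deposited values was inferred from their range (2.23 to 16.4). They had been normalized between arrays by a method not given in the sources used here, and the submitters' processing notes list R 2.7.1. Values under 2.3 were treated as the floor (44.2% of values). Of 12488 probe sets, 10833 were listed with 1 gene. The probe set with the highest mean stood for each of 8251 genes, with symbols from the RefSeq table of GRCm38.p6 by gene identifier (10817 of 10833 matched).

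Comparisons used limma 3.58.1 in R 4.3.3 (lmFit, contrasts.fit, eBayes) in 1 fit of 4 group means over 23 arrays, two-sided, with Benjamini-Hochberg adjustment over 8251 genes and a threshold of 0.05. The fit was tested on simulated data. Correlations used scipy 1.17.1 with 100000 permutations within groups. All members and, from each other list, genes past the threshold or otherwise the 2 smallest p-values in the mean drug and mean line comparisons are named, and the 3 genes most like each member. Genes at the ends of a range (Chordc1, Cdc37 and Pih1d1 for MA against SAL) were named after their values were seen. The members and lists were chosen with earlier results of these data known. Alternatives were other normalizations, filters, probe set rules, array weights, chip lot, age, a block on replicate number and leaving out each array. Leaving Hsp90aa1 or the arrays that stand apart out of the class index, and the array axis as a covariate, were chosen after seeing the data. An array stood apart when its score exceeded the median by 3.5 scaled median absolute deviations. No pair of the 253 array pairs held identical values. Of 11 same-numbered MA and SAL pools of a line, 10 shared a chip lot in the labels, with mean ages at most 12.75 days apart. Their deviations correlated over 0.1 in 8 of the 11 (r from -0.62 to 0.88), and in 2 of the 11 the same-numbered SAL pool was the MA pool's closest match. By the labels the number thus carries lot and age. The fits given have no block, and the fit with the number as a block is given where it changes a count of calls or moves a value by over 1.5 times. The number of arrays and the signal over the floor limit the precision.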

Additional observations from a re-analysis of the deposited data

Results flagged for a closer look

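Each member probe set was checked in each group for a highest or lowest pool far from the others, and 6 of 26 groups with 4 to 10 pools had one; chance flags about 1 in 20 groups. Dnajb1 was lowest in LMACT SAL replicate 5 at 5.52, against 6.29 to 6.67 in the other pools of that group. Hspa5 was lowest in the same pool at 8.43, and highest of the HMACT SAL pools in replicate 4 at 9.23. Hsp90aa1 (95282_at) was lowest in LMACT MA replicate 4 at 7.68, an array that stands apart on the array axis, while the other 4 pools lay between 11.35 and 11.93. The other Hsp90aa1 probe set was highest in LMACT MA replicate 2 at 2.302 and in LMACT SAL replicate 4 at 2.501, values at or close to the floor of 2.3. Most pools of these groups were at the floor for it, so the chance rate of 1 in 20 does not apply to these flags.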

How the results depend on the processing

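Negative differences of Hspa1a, Hspa1b and Dnajb1 between MA and SAL kept their sign in both lines and in their mean under all alternatives run, with Hspa1b from -1.82 to -1.60 in the mean. The line difference gave 16 genes, and 26 with quantile normalization, 32 with median centring, 32 without genes at the floor, 830 with array weights, 1 in the lot of 15 arrays, 1 with age as a covariate, 1 in pools under 100 days, 46 without the arrays that stand apart and 37 with the array axis as a covariate. Leaving out 1 array gave 9 to 76, with 76 without LMACT MA replicate 4, 9 without LMACT MA replicate 6 and 10 without LMACT SAL replicate 6. Members called in that comparison were 0, and 1 (Dnajb1) with quantile normalization, median centring, without genes at the floor and with array weights, and 0 to 1 on leaving out 1 array. The mean MA comparison gave 2 genes, and 6 with array weights, 0 in the lot of 15, 5 without the arrays that stand apart, 1 in pools under 100 days, 7 with the axis and 2 to 5 on leaving out 1 array. In HMACT it gave 1 gene, and 2 with array weights, 0 in the lot of 15, 0 with the replicate block, 3 without the arrays that stand apart, 0 in a fit of only the groups compared, 2 with the axis and 1 to 2 on leaving out 1 array. In LMACT it gave 0 genes, and 31 with array weights, 1 each without genes at the floor, without the arrays that stand apart, in a fit of only the groups compared, in pools under 100 days and with the axis, and 0 to 2 on leaving out 1 array. With the replicate block, whose number also carries chip lot and age, the line comparison gave 20 genes and the mean MA comparison 2, and it moved no member past the threshold in the line or interaction tests. Signs turned as follows. After MA, Hspa8 in HMACT was 0.033 to 0.058 under 3 alternatives, Hspa5 in LMACT 0.027 and 0.033 under 2, and Hsp90aa1 0.38 with array weights and 0.14 in pools under 100 days as a mean of both lines, while in HMACT it ran from -0.99 to 1.51. Hspa5 between lines was 0.084 in pools under 100 days and 0.00743 with the axis, Hsp90aa1 0.096, Hspa2 -0.021 with the axis, and Hspa9 0.040 in pools under 100 days. Hspa4l after MA was 0.18 with array weights. The interaction of Hsp90aa1 was -0.94 in the lot of 15 and -0.20 with the axis, that of Hspa1a 0.072 with the axis and -0.24 to 0.087 on leaving out 1 array, and that of Hspa1b 0.00886 with median centring, 0.0798 without the arrays that stand apart, 0.29 in pools under 100 days, 0.10 with the axis and -0.26 to 0.18 on leaving out 1 array. The cause of these changes was not tested.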
